A study of Mus musculus with 12 samples.

Results

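The interferon-stimulated genes described here are 37 genes that cells switch on in response to interferons. They were chosen by name, as the rows of the deposited table that carry one of 37 listed symbols, and all 37 symbols were found among its 30743 rows. The table comes from RNA-seq of whole livers of male C57BL/6J mouse fetuses, taken at 15 ± 0.5 dpc. The dams had been fed either a control diet with 13.5 kcal% fat or a high-fat diet (HFD) with 60 kcal% fat for 12 to 14 weeks, and 6 livers were sequenced from each group. The labels do not say which fetuses were littermates. For each gene the table gives 1 level, the authors' average log2 CPM (reads scaled to a library of 1000000) over both diets. Its other columns hold the authors' own comparison of the diets and were not used here, and values of single livers were not analysed here. The levels below therefore describe both diets together, carry no SD, and give no difference between control and HFD for any gene.

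Type I interferons bind the receptor chains Ifnar1 and Ifnar2, and interferon gamma binds Ifngr1 and Ifngr2. Janus kinases on these receptors switch on transcription factors. A complex that holds Stat2 and Irf9 binds the interferon-stimulated response element (ISRE) in promoters, while the response to interferon gamma acts mainly through the gamma-activated site (GAS). The genes switched on in this way sense foreign nucleic acids, block steps of viral replication, or mark and attack the compartments in which pathogens live, and several of them are also used by blood-forming cells without infection. The fetal liver holds hepatoblasts beside the blood-forming cells it shelters, so RNA of a whole liver mixes these sources. In such a sample, fewer cells of a type and less RNA per cell cannot be told apart.

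RefSeq promoters (build GRCm38.p6, from 250 bases before to 50 after the transcription start) were found for 27 of the 37 symbols. The core of an ISRE, searched on both strands, was taken as GAAA followed after 2 free bases by another GAAA, which reads TTTC, 2 bases and TTTC on the other strand. These letters were present for 15 of the 27 genes (55.6%), against 3.99% of all 27025 symbols with a promoter. The sequences below are shown because each is the promoter of the member with the highest level in its role among those that hold these letters. Capitals mark the ISRE letters, and each sequence is read 5′ to 3′ on the strand of its gene. For Stat2 (chr10:128270248-128270497, plus strand), Isg15 (chr4:156200819-156201068, minus strand) and Bst2 (chr8:71537473-71537722, minus strand) the 250 bases before the start are given. For Ddx58 (chr4:40239804-40239833, minus strand) and Irgm1 (chr11:48871428-48871457, minus strand) only the 30 bases around the letters are given. In Ddx58 the letters lay after the start, and in Irgm1 the 250 bases overlapped an annotated exon.
Stat2: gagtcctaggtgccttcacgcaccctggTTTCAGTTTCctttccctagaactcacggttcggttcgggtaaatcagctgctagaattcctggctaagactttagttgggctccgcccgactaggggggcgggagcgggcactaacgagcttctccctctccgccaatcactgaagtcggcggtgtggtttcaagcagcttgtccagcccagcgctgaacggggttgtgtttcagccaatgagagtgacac
Isg15: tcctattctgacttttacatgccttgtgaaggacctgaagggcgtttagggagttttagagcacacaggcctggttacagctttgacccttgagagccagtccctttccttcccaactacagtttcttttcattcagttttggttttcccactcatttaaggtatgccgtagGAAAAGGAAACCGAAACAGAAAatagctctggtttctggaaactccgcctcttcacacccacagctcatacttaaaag
Bst2: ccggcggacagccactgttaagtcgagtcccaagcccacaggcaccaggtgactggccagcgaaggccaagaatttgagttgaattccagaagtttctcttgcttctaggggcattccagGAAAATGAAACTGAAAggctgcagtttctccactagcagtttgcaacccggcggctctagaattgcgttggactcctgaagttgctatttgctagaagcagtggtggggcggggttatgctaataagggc
Ddx58: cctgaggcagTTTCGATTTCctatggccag
Irgm1: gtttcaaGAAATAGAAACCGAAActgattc

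In Isg15, 3 copies of the letters overlapped, starting 78, 72 and 66 bases before the transcription start. Overlapping copies were also found in Bst2, Gbp3, Irgm1 and Oas1a, and 7 of the 15 genes held more than 1 copy. Counted with their overlaps, the 15 genes held 23 copies, of which 21 began before the start and 14 within the last 100 bases before it. In Ddx58 and Ifih1 the letters lay after the start. These positions are from the RefSeq start. By the gene spans of GENCODE M21, the letters of Gbp2, Irgm1 and Irgm2 also lay inside the gene. One spelling, GAAACTGAAA or its reverse complement, recurred in 9 genes (33.3% of the 27, against 0.263% of all symbols). These were Bst2, Gbp3, Gbp7, Ifit1, Ifit3, Igtp, Irgm2, Oas1a and Stat2. This spelling was singled out after the promoters had been read.

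The GAS letters TTCNNNGAA, which read the same on both strands and overlapped ISRE letters in Bst2, were present for 9 of the 27 genes (33.3%, against 9.55% of all symbols). Of the 9, Bst2, Gbp7, Igtp, Irgm2 and Oas1a held both motifs. In Igtp and in Irgm2, GTPase genes that overlap on chromosome 11, the first base of the ISRE lay 11 bases after the first base of the GAS. Neither motif was found in this window for 8 genes, among them Lgals3bp and Cmpk2. These matches are letters in a reference sequence and not measured binding. The median level was 4.67 CPM in the 15 genes with ISRE letters (0.152 to 83.9 CPM) and 4.35 CPM in the 12 without (0.152 to 143 CPM), and the ranges overlapped.

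**Figure D1:**
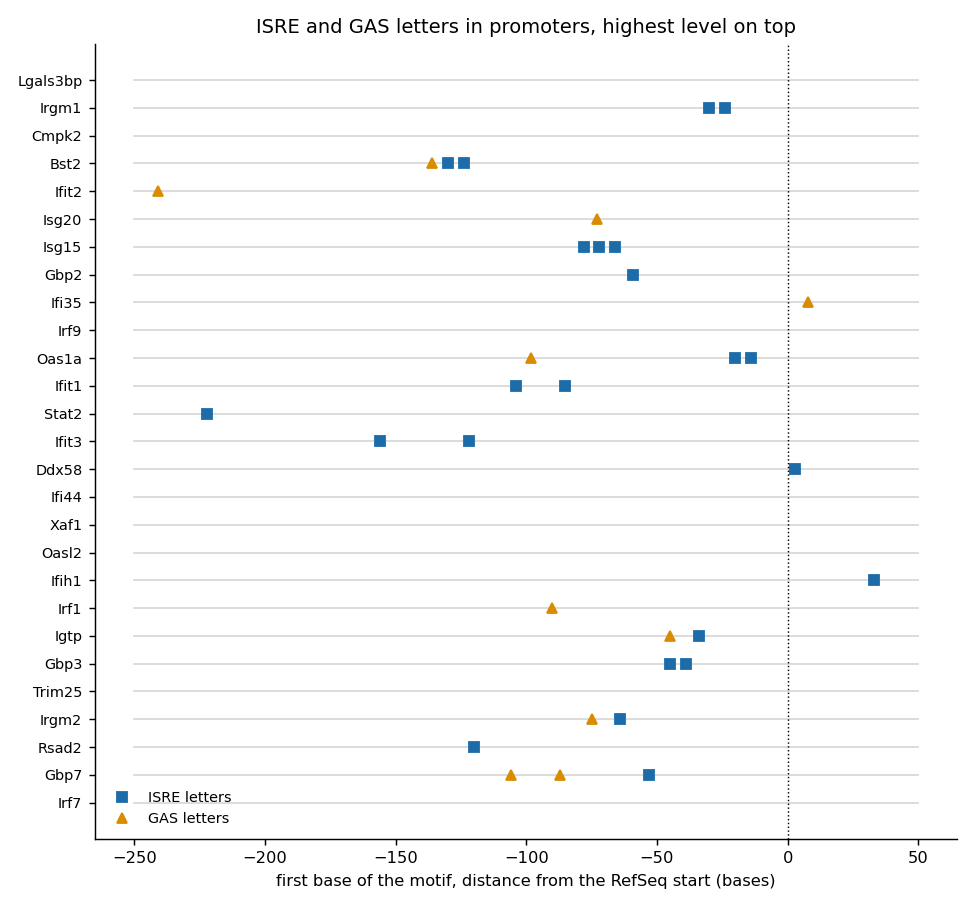
Positions of the ISRE letters (squares) and GAS letters (triangles) in the RefSeq promoters of 27 interferon-stimulated genes, ordered from the highest level (top) to the lowest. The x axis gives the distance of the motif's first base from the transcription start in bases; 14 of the 23 ISRE copies lie within the last 100 bases before the start, and genes with and without the letters lie at the top and at the bottom.

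The fetal livers gave reads for 35 of the 37 interferon-stimulated genes, and their levels spanned from 0.203 to 143 CPM. Of the 37, 24 lay above 1 CPM (64.9%, against 45.1% of the 18719 rows of protein-coding genes) and 11 above 10 CPM (29.7%, against 26%). The median level of the 35 was 2.07 CPM, beside 1.97 CPM for protein-coding rows with reads. Reads were uneven among the members: Lgals3bp, Irgm1, Cmpk2 and Bst2 together held 67.8% of all reads of the list, and Lgals3bp alone held 29%. Irf7 and Gbp7 were listed at the lowest value of the table, 0.152 CPM, which is the value of genes without reads.

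The depth behind a level can be estimated from that lowest value, assuming the prior count of 2 that edgeR adds to each library. It corresponds to a mean normalized library of 1.31e+07 reads, in which 1 CPM stands for 11.1 reads per library. Every CPM value given here includes the prior, 0.152 CPM, so the lowest levels are largely prior: without it Rsad2 had 0.0508 in place of 0.203 CPM and Mx1 0.0634 in place of 0.216 CPM. Levels under 1 CPM therefore rest on few reads, and values per kilobase are given without the prior. Among the members, Zbp1, Oasl2 and Xaf1 lay above 1 CPM only with the prior, and had 0.88, 0.915 and 0.926 CPM without it. Rsad2 had about 8 and Mx1 about 10 reads over all 12 libraries, whereas Lgals3bp had about 22513.

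A level in this table is not a safe measure of how much of a gene was transcribed. Among 72 rows of cytosolic ribosomal proteins, genes that every cell uses, 10 lay under 1 CPM, and Rps21, Rps25, Rps27a and Rps28 were listed at the lowest value. Stat3 was listed there too, Ppia had 0.165 CPM, Ctnnb1 1.05 CPM and Gapdh 5.2 CPM, while Hprt had 298 CPM and Actb 2581 CPM. Levels also differed with the number of curated RefSeq transcripts of a gene, though not in steady order. Of the ribosomal protein rows, 4 of 55 with 1 curated transcript lay under 1 CPM, against 6 of 17 with more. The median of these rows was 21.1 CPM with 1 transcript, 1.36 CPM with 2 (7 rows) and 12.2 CPM with 3 (6 rows). With 4 or more transcripts it was 0.497 CPM (4 rows). Above 1 CPM lay 48.6% of the 11196 protein-coding rows with 1 curated transcript and 40.6% of the 7060 with more. Interferon-stimulated genes had a median of 5.4 CPM where 1 curated transcript was listed (20 genes, 14 above 1 CPM) and of 1.07 CPM where more were listed (15 genes, 9 above 1 CPM). Among the latter, the 2 genes with 4 or more were Isg20 at 19.5 and Gbp3 at 0.361 CPM. The part of this in the members' levels was not tested. A high level shows that reads were assigned to a gene, whereas a low level, or the lowest value, is given here only as listed.

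**Figure D2:**
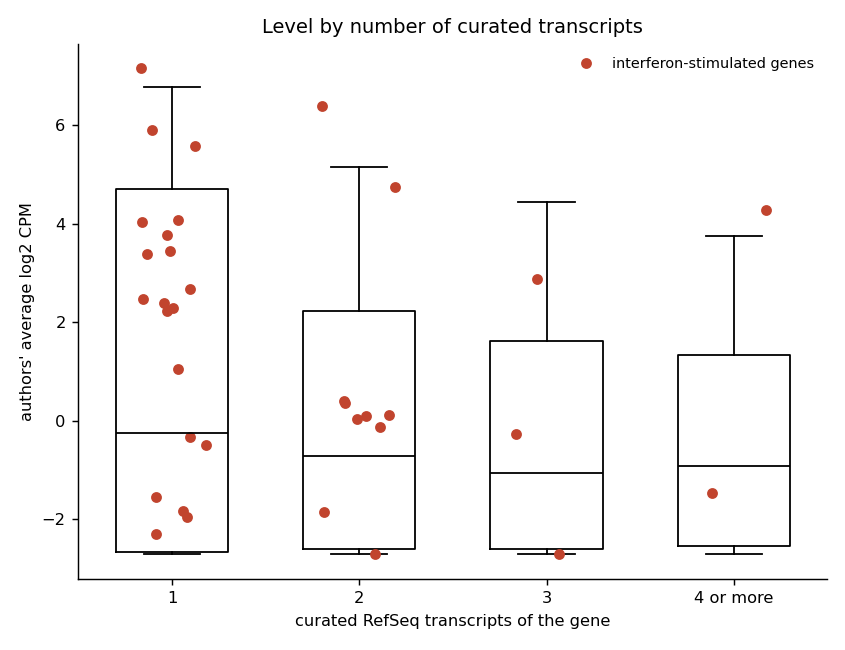
Authors' average log2 CPM by the number of curated RefSeq transcripts. Boxes show protein-coding rows of the table (median, quartiles, whiskers from the 10th to the 90th percentile) and red points 35 interferon-stimulated genes, whose median was 5.4 CPM with 1 transcript and 1.07 CPM with more.

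Of the 4 sensors of foreign nucleic acids, 3 lay above 1 CPM, and the median was 1.55 CPM. Beside this and the other counts by role stands the share of protein-coding rows above 1 CPM, 45.1%. Dhx58, which regulates the RIG-I-like receptors, had the highest level of them at 6.38 CPM. Ddx58 encodes RIG-I, which recognizes viral RNA with a triphosphate end, and its level was 2.07 CPM. Zbp1, a sensor of Z-form nucleic acids, had 1.03 CPM and Ifih1, which encodes the long double-stranded RNA sensor MDA5, had 0.922 CPM. The last 2 correspond to about 139 and 121 reads over the 12 libraries.

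Of the 4 transcription factors, Irf9 and Stat2, which act together on the ISRE, lay above 1 CPM. Irf9, which recognizes the DNA letters, had 7.38 CPM, and Stat2 had 4.91 CPM. Irf1, which is induced mainly by interferon gamma, had 0.834 CPM. Irf7, which amplifies type I interferon production, was at the lowest value, as was Stat3 outside the list. RefSeq holds 3 curated transcripts for each of Irf1, Irf7 and Irf9, and 1 for Stat2.

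Both central genes of the ISG15 system lay above 10 CPM. Isg15, a ubiquitin-like protein that is attached to other proteins, had 16.3 CPM, and Usp18, the protease that removes it and also restrains the type I receptor, had 17 CPM. Ube2l6, the conjugating enzyme for Isg15, had 969 CPM, and Uba7, the activating enzyme, had 28.1 CPM. Both are outside the 37 genes. Per kilobase of exon, Ube2l6 stood at 486 CPM/kb, above Isg15 at 21.4 and Usp18 at 6.03 CPM/kb. Trim25, a ubiquitin ligase that acts with RIG-I, had 0.344 CPM and has 1 curated transcript.

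Antiviral effectors made up 12 of the members, and 10 of them lay above 1 CPM, with a median of 5.4 CPM. Cmpk2, a mitochondrial nucleotide kinase, had 59.7 CPM. Bst2, also known as tetherin, which holds budding virus at the cell surface, had 47.6 CPM. Bst2 is in addition a marker of plasmacytoid dendritic cells, of whose other markers Siglech was listed at the lowest value and Ccr9 at 0.476 CPM. Siglech has 3 curated transcripts and Ccr9 has 2, and the part of these cells in the level of Bst2 was not tested.

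Ifit proteins bind foreign RNA and limit its translation. Ifit2 had 26.9 CPM, Ifit1 had 5.24 CPM and Ifit3 had 4.67 CPM. Of the 50-base windows in Ifit3 transcripts, 51.2% also occur in those of Ifit3b, so reads can be shared and the level of Ifit3 is uncertain. The same holds for Oas1a, one of the enzymes that make the messenger that activates RNase L. It had 5.55 CPM and shared 57.6% of its windows with other genes, chiefly Oas1g and Oas1b.

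Isg20, an exonuclease, had 19.5 CPM. Rtp4 had 10.9 CPM, with 13.9% of its exon bases in exons of other genes. Oasl2 had 1.07 CPM. Mx1 and Mx2, dynamin-like GTPases, had 0.216 and 1.52 CPM. Mx1 is known to be defective in most inbred laboratory strains, C57BL/6 among them. GENCODE M21 annotates Mx2 as a polymorphic pseudogene and not as protein-coding, although it is counted here among the members above 1 CPM. No curated RefSeq transcript was listed for Mx1 or Mx2. Rsad2, which encodes viperin, had 0.203 CPM, the lowest level of any member with reads.

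Of the 7 members placed in the role of interferon-inducible GTPases, 2 lay above 10 CPM and 5 under 1 CPM. Mx1 and Mx2 are GTPases too but were counted with the antiviral effectors. Irgm1, which controls other GTPases of its family and is needed for normal blood stem cell function in mice, had 83.9 CPM. Gbp2, a guanylate-binding protein that attacks pathogen vacuoles, had 13.6 CPM. Igtp (0.796 CPM), Gbp3 (0.361 CPM), Iigp1 (0.278 CPM) and Irgm2 (0.26 CPM) were low, and Gbp7 was at the lowest value. Exons of Igtp and Irgm2 share 162 bases in GENCODE M21, and 11.3% of the exon bases of Gbp7 lie in exons of another gene. Gbp3 and Iigp1 share no exon bases with other genes. The part of shared exons in these levels was not tested.

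The remaining members ranged from 0.28 to 143 CPM. Lgals3bp, a secreted glycoprotein that binds galectins, had the highest CPM of all 37 members, 143 CPM, and stood at the percentile 94.4 of rows with reads. Ifi35 had 10.4 CPM, and exons of other genes cover 16.8% of its exon bases. Ifi44, Ifi27l2a and Xaf1 lay between 1.08 and 1.32 CPM. The ADP-ribosyltransferase family members Parp9 and Parp14 had 0.708 and 0.28 CPM, while Dtx3l, the ubiquitin ligase that binds Parp9, had 29.5 CPM. Per kilobase of exon these were 0.114 CPM/kb for Parp9 and 5.13 CPM/kb for Dtx3l, whose exons on the opposite strand cover 9.4% of those of Parp9.

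**Figure D3:**
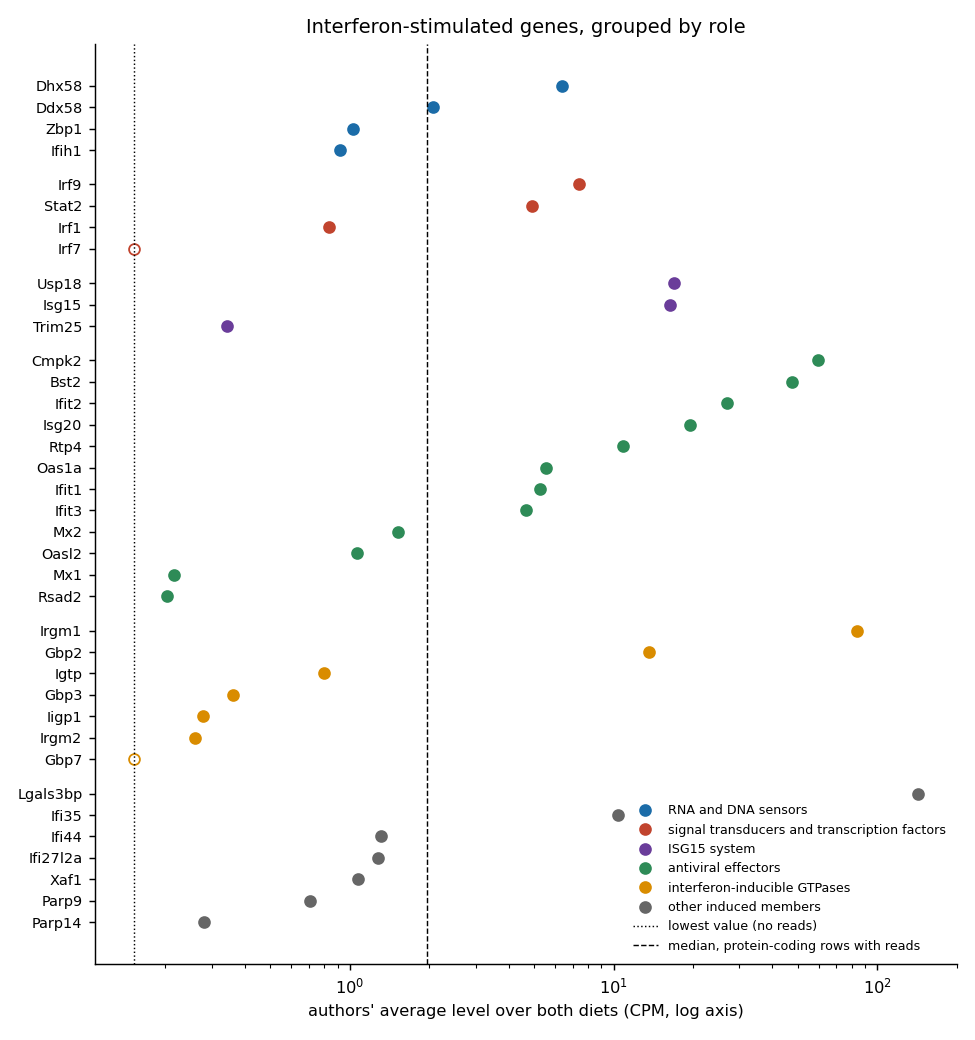
Authors' average level of each of the 37 interferon-stimulated genes in CPM on a log axis, grouped by role; each point is 1 gene over both diets, and open circles mark Irf7 and Gbp7 at the lowest value, 0.152 CPM. The dashed line is the median of protein-coding rows with reads, 1.97 CPM, and each of the 6 roles has members on both sides of it.

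Longer transcripts collect more reads, so levels were compared between genes after division by the length of annotated exons (GENCODE M21), with the prior count removed. Per kilobase, Bst2 was highest at 52.6 CPM/kb, followed by Lgals3bp at 50.2 CPM/kb and Isg15 at 21.4 CPM/kb. Divided by the longest transcript instead, Lgals3bp (61.3 CPM/kb) stood above Bst2 (60 CPM/kb), and Irgm1 (21.9 CPM/kb) above Isg15 (21.4 CPM/kb). By all exons, Isg15 moved from the eighth place by CPM to the third, since its exons cover only 756 bases. Irgm1 (14.4 CPM/kb) and Cmpk2 (14.3 CPM/kb) came next. The short gene Ifi27l2a moved from place 21 to place 14, at 2.44 CPM/kb. Of the 10 highest members by CPM, 9 were also among the 10 highest per kilobase. With 1 pooled value per gene there is no spread between livers, so it is not known which neighbours in this order differ.

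**Figure D4:**
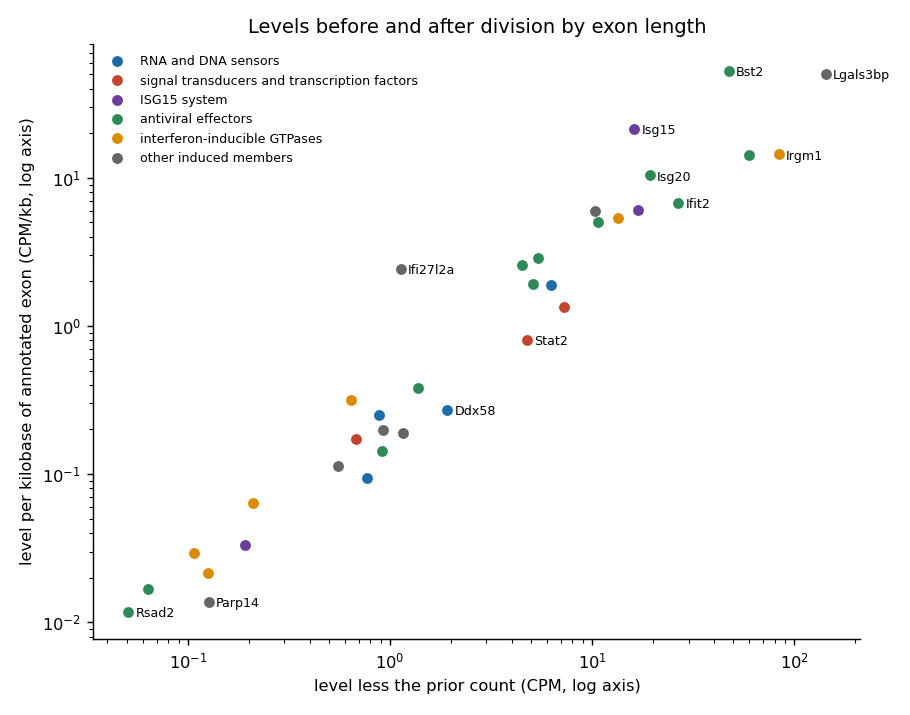
Level of the 35 interferon-stimulated genes with reads, in CPM less the prior count (x axis) and in CPM per kilobase of annotated exon (y axis), both on log axes; each point is 1 gene, coloured by role. Bst2 and Lgals3bp lie highest per kilobase, at 52.6 and 50.2 CPM/kb, and the short genes Isg15 and Ifi27l2a lie above genes of similar CPM.

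Within 100 kb of another member lay 14 of the 37 genes, on 5 chromosomes. Cmpk2 (chr12:26469204-26479837) and Rsad2 (chr12:26442746-26456452) are transcribed away from each other, 12.8 kb apart, and stood at 59.7 and 0.203 CPM, or 14.3 and 0.0117 CPM/kb with the prior count removed. Each has 1 curated transcript, and neither shares exon bases with another gene. The low level of Rsad2 is given only as listed, and the source of this contrast was not tested. On chromosome 3, Gbp2 at 13.6 CPM lay beside Gbp3 and Gbp7. On chromosome 19, Ifit2, Ifit3 and Ifit1 stood in that order within 1 cluster, all above 1 CPM. Mx1 and Mx2, and Parp14 and Parp9, were neighbours on chromosome 16.

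The rest of the interferon pathway was taken from fixed lists, whose counts stand beside 45.1% of protein-coding rows above 1 CPM. Of 7 ligand genes in the table, none lay above 1 CPM, and Ifnb1, Ifna1, Ifna2, Ifna4 and Ifne were at the lowest value. Ifng had 0.197 CPM and Ifnk 0.171 CPM. In contrast, all 5 receptor chains found in the table lay above 1 CPM. The ligand genes Ifnl2 and Ifnl3 and the receptor chain Ifnlr1 were not found there and could not be assessed. Ifngr1 had 103 CPM, Ifngr2 58.4 CPM, Il10rb 48.9 CPM, Ifnar1 34.2 CPM and Ifnar2 4.93 CPM.

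Jak1, a kinase that serves all these receptor complexes, had 394 CPM, while Jak2 had 3.54 and Tyk2 0.502 CPM. Of 8 genes that induce interferon, 4 lay above 1 CPM. Irf8, which also directs myeloid differentiation, led this list with 44.5 CPM, whereas Tbk1 and Tmem173, which encodes STING, were at the lowest value. The feedback genes Socs3, Ptpn6 and Socs1 had 41.5, 5.99 and 2.42 CPM.

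Of 33 further induced genes in the table, 23 lay above 1 CPM, beside 45.1% of protein-coding rows. Their median was 4.08 CPM. Besides Ube2l6, the highest by CPM were Ifitm2 at 147 CPM, Eif2ak2 at 84.6 CPM and the immunoproteasome subunit Psmb10 at 54.8 CPM. Divided by exon length, Ifitm2 stood at 224 CPM/kb and Ifitm3 at 65.7 CPM/kb, above Psmb10 at 32 and Eif2ak2 at 16.5 CPM/kb. Eif2ak2 encodes PKR, a kinase that halts translation on sensing double-stranded RNA.

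**Figure D5:**
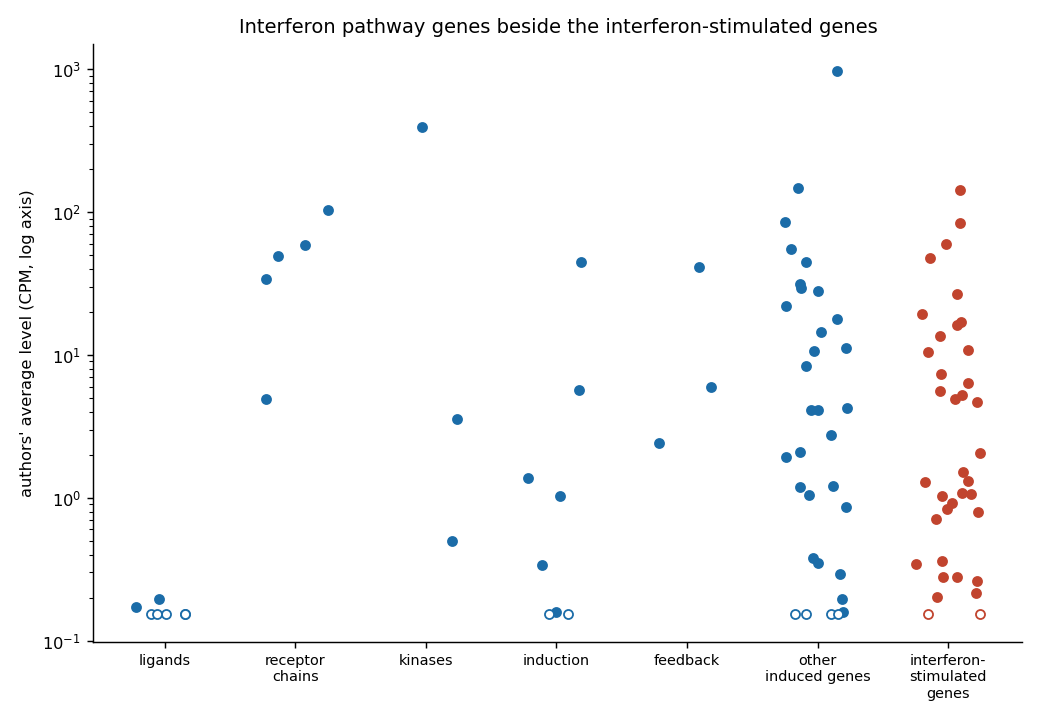
Authors' average level in CPM (log axis) of interferon pathway genes in 6 lists (blue) and of the 37 interferon-stimulated genes (red); each point is 1 gene over both diets and open circles lie at the lowest value. The 7 ligands all lie under 1 CPM and the 5 receptor chains between 4.93 and 103 CPM.

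Markers of liver and blood lineages were checked in the same table, in which 45.1% of protein-coding rows lay above 1 CPM. Hepatoblast markers Alb and Afp had 63314 and 54525 CPM, and 6 of the 7 markers of that list lay above 1 CPM, with Serpina1a at 0.184 CPM. Among erythroid markers, Klf1 had 692 CPM and Alas2 0.704 CPM, and the globin genes Hbb-bt and Hba-a1 were not listed. All 5 neutrophil lineage markers lay above 1 CPM, led by Mpo at 759 CPM. Of 6 listed macrophage markers 3 lay above 1 CPM, with Marco at 208 CPM and Emr1 at the lowest value, and none of the 3 T and NK cell markers lay above 1 CPM. Above 1 CPM were also 3 of 4 listed erythroid, 2 of 4 B lineage, 3 of 3 megakaryocyte, 3 of 4 endothelial and 2 of 3 stellate cell markers. Which of these cells carried the interferon-stimulated transcripts was not tested.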

How the data were processed

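Polyadenylated RNA of 6 control and 6 HFD fetal livers was sequenced on an Illumina HiSeq instrument. Per the labels and the methods of the study, adapters were trimmed with cutadapt 1.2.1, reads were aligned to mm10 with Subread 1.3.6-p1, genes were annotated with biomaRt and diets were compared with edgeR. The counting tool and the edgeR version are not given in the sources used here. The authors deposited 1 table with an average log2 CPM per gene symbol over all libraries, which is the value used. The table also holds log2 and signed fold changes, p-values and adjusted p-values of the authors' comparison with 2 dispersions, which were not used. The planned edgeR quasi-likelihood test of the diets needs counts for each liver and was not run.

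Levels were converted to CPM, and reads per library were estimated from the lowest value with a prior count of 2. Exon lengths, positions and exon overlaps came from GENCODE M21 (GRCm38, the build of mm10), to which 21063 of the 30743 symbols matched, and curated transcripts (NM_ accessions) and promoters from RefSeq on GRCm38.p6. Shared sequence was the share of 50-base windows of a gene's transcripts found, on either strand, in transcripts of another gene. The library kit does not mark strand, so reads of overlapping genes cannot be told apart. The members and lists were chosen with earlier results of these data known. All members are named, and other genes are those of fixed lists. The exceptions are ribosomal protein genes and Gapdh, Ppia, Actb, Stat3, Hprt and Ctnnb1, which were chosen after their values were seen. One promoter was printed for each role with ISRE letters among its matched members (5 of 6 roles), that of the member with the highest level among those with ISRE letters. Some genes of these lists are not reported here. The functions were tested on simulated data. The versions were matplotlib 3.10.9, scipy 1.17.1, Python 3.11.15, pandas 2.3.3 and numpy 2.4.6.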

Additional observations from a re-analysis of the deposited data

How the results depend on the processing

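No test between diets was run, so the alternatives concern levels and promoter letters. With thresholds of 0.5 and 2 CPM in place of 1 CPM, 28 and 18 members lay above it, against 24. Counting only the 20 members with 1 curated transcript, an alternative chosen after seeing the data, gave 14 of 20, against 24 of all 37. The median level of members with reads stood at percentile 56.9 of rows with reads, at 50.6 of protein-coding rows with reads, and the median of all 37 at 70.2 of all rows. A prior count of 1 in place of 2 would give a mean library of 6.56e+06 reads in place of 1.31e+07. Division by exon length or by the longest transcript kept 9 of the 10 highest members, but the first place went to Bst2 by exon length and to Lgals3bp by the longest transcript. ISRE letters were found in 12 genes with a C required after the second GAAA and in 13 with the 250 bases before the start, against 15, and GAS letters in 8 against 9. Leaving out livers, another normalization, DESeq2 and another filter were not run, since each needs counts for every liver. No paired analysis was possible because the level is pooled over all livers of both diets.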
